A study of Mus musculus with 3 samples.

Results

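The genes described here are 9 members of the Hippo signalling pathway that act with or around the coactivator YAP. They are Yap1 and Wwtr1, which encode the coactivators YAP and TAZ, the DNA-binding partners Tead1 and Tead2, the kinase gene Lats2, and the genes Ctgf, Cyr61, Amotl2 and Ankrd1, which YAP is known to raise in many tissues. They were taken by name from the count tables, as 9 of the 17775 genes with a row in any table. All 9 had a row in the tables labelled P27NULL and S2CK, and 8 had a row in the table labelled WT, where Ankrd1 was not listed.

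The data were 3 droplet libraries of dissected intermediate lobes (ILs) of the mouse pituitary, 1 per genotype, from pooled animals that were 3 months old. WT is labelled Sox9iresCreERT2/+, P27NULL carries Sox9iresCreERT2/+;p27-/- and S2CK carries Sox9iresCreERT2/+;Sox2fl/+;p27-/-, so all groups hold a tamoxifen-inducible Cre driven from Sox9, a gene active in stem cells (SCs). Tamoxifen was given by gavage at 4 weeks of age by the labels, while the study's text places Cre induction at birth, and this was not settled here. The animals pooled for WT were male and the other pools are described as of both sexes, but 3274 of 3488 S2CK cells carried Xist UMIs and no Y-linked UMI, and no WT cell carried an Xist UMI. In SC-like cells, and in the order WT, P27NULL and S2CK kept below, the targeted gene Cdkn1b (p27) was measured at 46.6, 50.2 and 25.4 CPM and Sox2 at 279.7, 309.4 and 133.5 CPM. The log2 ratio of Cdkn1b to WT was 0.11 (-0.83 to 1.03) in P27NULL and -0.87 (-1.88 to 0.09) in S2CK, which held 16 UMIs. The counts in SC-like cells therefore do not show the loss labelled for P27NULL, and the S2CK ratio lay within counting error. In melanotroph-like cells, named below, Cdkn1b stood at 34.1 (29.6 to 39.1), 30.8 (27.9 to 33.9) and 17.0 CPM (15.1 to 19.0). There the S2CK interval lay below those of WT and P27NULL. A 3′ tag outside the deleted part would check nothing, so the counts settle neither label, and the libraries are called by their labels throughout.

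Hippo signalling couples cell contact, tension and polarity to growth. When its core kinases are active, LATS kinases phosphorylate YAP and TAZ and hold them in the cytoplasm, and when the kinases are inactive YAP and TAZ enter the nucleus, bind TEAD factors and switch on genes for matrix, adhesion and growth, together with feedback inhibitors of the pathway. In the pituitary the coactivators are known from the SC compartment, and their activity is set mainly by phosphorylation and location of the proteins, which counts of mRNA do not measure.

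TEAD factors bind the letters CATTCC, which read GGAATG on the opposite strand. Promoters of the target genes, taken from RefSeq on build GRCm38.p6 as 250 bases before to 50 bases after a start site, are shown because the target genes are read below beside their supposed regulators. RefSeq lists Cyr61 as Ccn1 and Ctgf as Ccn2. Capitals mark each match to the letters on either strand, and all 3 sequences run 5′ to 3′ on the strand of the gene.
Cyr61 (chr3:145649936-145650235, minus strand): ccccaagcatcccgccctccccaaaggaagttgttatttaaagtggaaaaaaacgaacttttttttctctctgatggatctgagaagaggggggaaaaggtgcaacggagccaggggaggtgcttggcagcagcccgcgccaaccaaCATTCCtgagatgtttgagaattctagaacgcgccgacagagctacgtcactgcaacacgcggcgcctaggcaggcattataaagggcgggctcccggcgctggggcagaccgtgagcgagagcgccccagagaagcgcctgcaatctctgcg
Amotl2 (chr9:102717554-102717853, plus strand): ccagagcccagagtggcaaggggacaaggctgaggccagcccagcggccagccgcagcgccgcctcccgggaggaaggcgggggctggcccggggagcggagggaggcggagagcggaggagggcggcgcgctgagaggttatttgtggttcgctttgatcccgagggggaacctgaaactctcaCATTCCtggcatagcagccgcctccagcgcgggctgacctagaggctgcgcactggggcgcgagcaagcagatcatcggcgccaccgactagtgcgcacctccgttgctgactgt
Ankrd1 (chr19:36119795-36120094, minus strand): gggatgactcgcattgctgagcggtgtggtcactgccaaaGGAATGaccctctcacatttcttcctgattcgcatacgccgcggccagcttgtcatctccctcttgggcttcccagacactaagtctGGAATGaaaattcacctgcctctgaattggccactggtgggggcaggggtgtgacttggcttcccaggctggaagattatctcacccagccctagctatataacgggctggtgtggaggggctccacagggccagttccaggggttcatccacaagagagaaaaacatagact
The match in Cyr61 began 103 bases before the start site and that in Amotl2 65 bases before it, while Ankrd1 held 2 matches, 210 and 123 bases before it. Promoters were matched for 7 of the 9 members, and Tead1 and Ctgf had no entry. A match was found for 6 of the 7 genes, all but Tead2. Among all 32851 promoters of this length 14.7% held at least 1 match and 1.36% held 2 or more. A match is a description of the letters and not a measured site.

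Cells were grouped by clustering with the pathway genes left out and were named from marker genes of each type. This gave 141 SC-like cells in WT, 104 in P27NULL and 83 in S2CK (called stem-like in the plots), with 536370, 378149 and 629128 unique molecular identifiers (UMIs, each marking 1 captured transcript). Melanotrophs, the main endocrine cells of the lobe, made up 7782 of the 8122 endocrine-like cells, and gonadotroph-like and Pou1f1-lineage-like cells made up the rest. All 6 SC markers and all 7 melanotroph markers were detected in both SC-like and endocrine-like cells of every library, at unlike levels. The SC markers summed to 9926, 8401 and 5268 CPM in SC-like and 48.8, 62.0 and 29.7 CPM in endocrine-like cells. The melanotroph markers summed to 852, 674 and 647 CPM in SC-like and 4972, 7002 and 3460 CPM in endocrine-like cells. The names came from these markers, so the sums are no check of them. Cells of the neighbouring lobes (gonadotroph-like, Pou1f1-lineage-like and pituicyte-like) were present too. Levels are UMIs per 1000000 UMIs of a cell type (CPM), not per length, so they are compared across cells and not between genes. Intervals are exact and at 95%, and cover counting error only. Leukocyte-like cells (macrophages, T cells and NK cells) served as a reading of free RNA, the transcripts of broken cells that enter other droplets. Their median depth was 1804 UMIs per cell, against 2392 in SC-like and 4208 in endocrine-like cells.

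**Figure D1:**
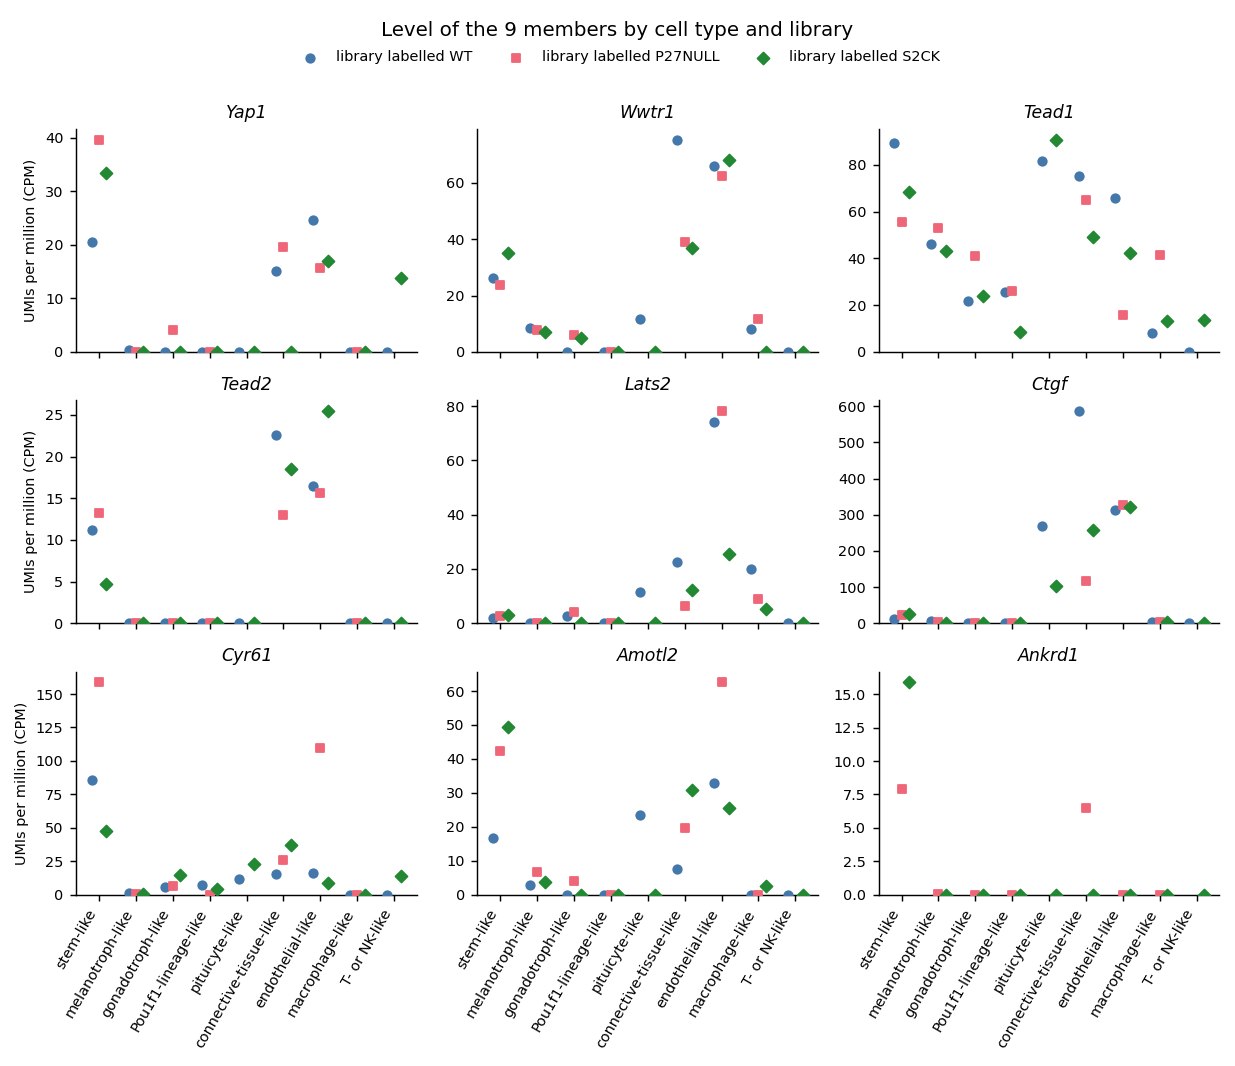
Level of each member in CPM (vertical axes, linear, each panel with its own range) by cell type, with 1 point per library and cell type of at least 20 cells; pituicyte-like and T- or NK-like cells of P27NULL held fewer and are not drawn, nor is Ankrd1 in WT, which had no row. Cyr61 was highest in SC-like cells in 3 libraries and Yap1 in 2, while Wwtr1, Lats2 and Ctgf stood highest in endothelial-like or connective-tissue-like cells.

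SC-like cells carried most members of the pathway at a higher level than endocrine-like cells. In a fit over the 3 libraries with the library as a term (edgeR's quasi-likelihood test with Benjamini-Hochberg adjustment over 12106 genes), 6 of the 7 members that passed the count filter were higher in SC-like cells and none was lower. Of all genes tested, 20.4% were higher and 20.5% were lower in SC-like cells. The median log2 fold change was 2.92 over the 7 members and -0.07 over all genes. Lats2 and Ankrd1 fell under the filter. The filter kept genes whose counts passed in 1 class alone, and Yap1, Tead2 and Cyr61 passed through SC-like cells, where they were higher. Amotl2 and Ctgf did not pass in endocrine-like cells alone either, and only Wwtr1 and Tead1 did. The count and the median therefore rest mostly on members let in by the class where they were higher. With no filter, 7 of 9 members were higher and none was lower, beside 15% higher and 17.3% lower of 17504 genes. The p-values rest on counting error and on a spread between 3 libraries of different genotypes that is estimated in part across all genes. They are therefore no measure of the spread of each gene between libraries. Each library is a pool, so variation between animals was not measured.

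The coactivator gene Yap1 (chromosome 9, 7931999 to 8004638) was nearly absent from endocrine-like cells. SC-like cells held 11 UMIs in WT, 15 in P27NULL and 21 in S2CK, or 20.5, 39.7 and 33.4 CPM. Endocrine-like cells held 2, 3 and 1 UMIs, or 0.30, 0.211 and 0.0572 CPM. The SC-like level was above the endocrine-like level in every library, with no overlap. The log2 ratio within a library was 6.09 (3.90 to 9.31) in WT, 7.55 (5.73 to 9.98) in P27NULL and 9.19 (6.55 to 14.56) in S2CK. The fitted log2 fold change was 7.28 ± 0.61 (SE, 3 libraries) with an adjusted p of 3.94e-10 in edgeR, and the gene was called in all 16 fits that were run. A UMI was found in 43 of 328 SC-like cells (13.1%, 9.65 to 17.2%), in 6 of 8122 endocrine-like cells (0.0739%) and in 1 of 449 leukocyte-like cells (0.223%). The log2 ratio of endocrine-like over leukocyte-like level was -2.51 (-5.55 to 3.01), so the endocrine-like signal was not distinguishable from free RNA. With cells thinned to 1000 UMIs, which kept 314, 8098 and 404 cells of these types, the shares were 4.46%, 0.0123% and 0 of 404, which allows up to 0.743%. In WT and P27NULL no SC-like cell held more than 1 Yap1 UMI. Among the other cell types the nearest level was in endothelial-like cells, at 24.7, 15.6 and 17.0 CPM from 3, 1 and 2 UMIs, and these ranges overlap those of SC-like cells.

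Wwtr1 (chromosome 3, 57455644 to 57575910), the gene of TAZ, had a different spread over cell types. SC-like cells held 14, 9 and 22 UMIs (26.1, 23.8 and 35.0 CPM), and endocrine-like cells stood at 7.51, 7.67 and 7.03 CPM. All 3 SC-like values were above all endocrine-like values. The fitted difference was 1.74 ± 0.31 (SE) on the log2 scale with an adjusted p of 5.98e-05 in edgeR. Endothelial-like cells, at 65.9, 62.5 and 67.9 CPM, and connective-tissue-like cells, at 75.2, 39.1 and 37.0 CPM, lay above every SC-like value, and their ranges overlap each other. In endocrine-like cells the level was 7.35 CPM in all libraries together, against 5.35 CPM in leukocyte-like cells, a log2 ratio of 0.46 (-0.68 to 1.92), so the endocrine-like signal was not distinguishable from free RNA at this depth. The share of cells with a UMI was 10.98% in SC-like, 3.32% in endocrine-like and 1.34% in leukocyte-like cells, and 2.87%, 0.654% and 0.743% after thinning.

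UMIs of vascular and connective tissue markers were present among SC-like cells, and Ctgf and Amotl2 were higher in the cells that held them. Of 21 markers (8 endothelial, 6 connective tissue and 7 mural), at least 1 UMI was found in 37, 34 and 37 SC-like cells of WT, P27NULL and S2CK. These cells were also deeper, with median depths of 4439, 3331.5 and 10422 UMIs against 1885.5, 1851 and 2399 in the other SC-like cells. Wwtr1 stood at 37.6 CPM (26.2 to 52.3) in the cells with such a UMI and at 16.3 CPM (7.83 to 30.0) in the 220 without, and these intervals overlap. With the former cells left out, a setting chosen after the data were seen, the Wwtr1 difference from endocrine-like cells was 0.81 with an adjusted p of 0.356 and was no longer called, and 13.8% of 11835 genes were called higher. Yap1 kept its call in that fit, at 7.59 and an adjusted p of 1.69e-25, and its levels with and without marker UMIs were 25.8 CPM (16.5 to 38.3) and 37.6 CPM (23.8 to 56.4). The connective tissue markers summed to 48.5, 153.4 and 144.6 CPM in SC-like cells, with 5, 6 and 6 of 6 detected (Lum at 0 in WT). The mural markers summed to 57.8, 222.1 and 171.7 CPM, with 5, 4 and 6 of 7 detected (Cspg4 at 0 in P27NULL and S2CK, Abcc9 at 0 in WT and P27NULL). The endothelial markers summed to 29.8, 29.1 and 23.8 CPM, with 6, 6 and 5 of 8 detected. Cldn5 was at 0 in WT and P27NULL, Flt1 in WT and S2CK, Cdh5 in P27NULL, and Pecam1 and Kdr in S2CK.

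**Figure D2:**
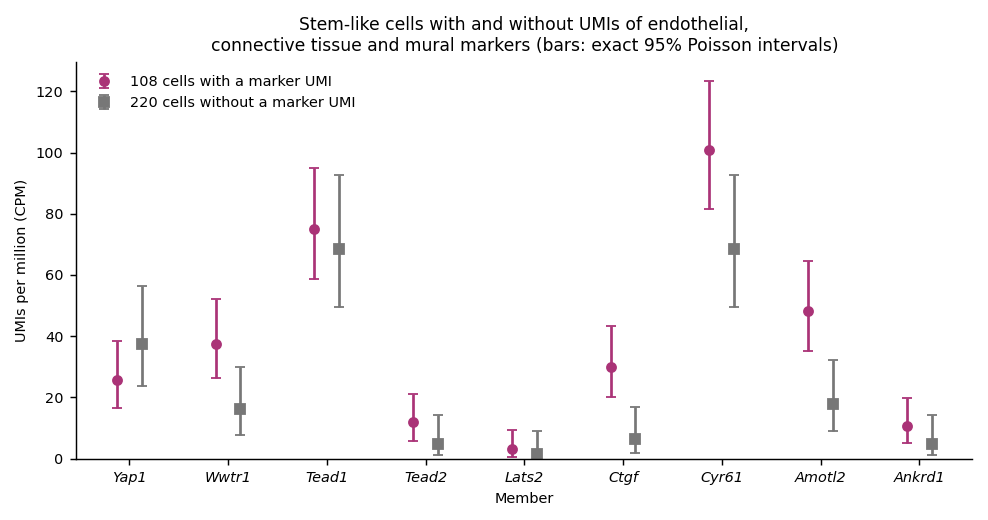
Level of each member (vertical axis, CPM) in SC-like cells of all libraries with at least 1 UMI of 21 endothelial, connective tissue and mural markers (108 cells, circles) and without any (220 cells, squares), with exact 95% Poisson intervals. Ctgf fell from 30.1 to 6.53 CPM and Amotl2 from 48.3 to 18.0 CPM between these cells, while the intervals of the other 7 members overlap.

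The TEAD genes split in the same comparison. Tead1 (chromosome 7, 112679356 to 112906784) was the member with the most UMIs over all cells and was measured in endocrine cells too. SC-like cells stood at 89.5, 55.5 and 68.3 CPM from 48, 21 and 43 UMIs, and endocrine-like cells at 44.0, 52.4 and 42.6 CPM. The SC-like values were above the endocrine-like values, but in P27NULL by only 0.08 on the log2 scale (-0.62 to 0.71). The fitted difference of 0.41 ± 0.20 (SE) had an adjusted p of 0.0954 in edgeR and was not called. It was called when total UMI counts replaced the trimmed mean of M-values (TMM) scaling, at 0.65 with an adjusted p of 0.0111, and without the P27NULL library, at 0.64 with an adjusted p of 0.0323, and was 0.17 with an adjusted p of 0.638 without WT. Tead1 in endocrine-like cells exceeded that in leukocyte-like cells, 46.5 against 19.6 CPM, by 1.24 (0.64 to 1.92) on the log2 scale, so it was above this reading of free RNA. By type, pituicyte-like cells (81.6 CPM in WT and 90.7 CPM in S2CK) and connective-tissue-like cells (75.2, 65.1 and 49.3 CPM) overlapped SC-like cells, and gonadotroph-like (21.6 to 40.9 CPM) and Pou1f1-lineage-like cells (8.50 to 26.2 CPM) lay below. The share with a UMI was 23.5% of SC-like, 17.8% of endocrine-like and 3.79% of leukocyte-like cells, and 5.73%, 4.33% and 1.73% after thinning.

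Tead2 (chromosome 7, 45215792 to 45233468) was scarce, and 28 of its 31 UMIs lay in SC-like, connective-tissue-like and endothelial-like cells. It had 6, 5 and 3 UMIs in SC-like cells of WT, P27NULL and S2CK (11.2, 13.2 and 4.77 CPM), and 0, 0 and 1 UMI in endocrine-like cells. Set against a floor of 3 UMIs per library it was 24.8-fold higher in SC-like cells of WT and 62.6-fold higher in P27NULL. The exact intervals of these ratios, which also hold the counting error of SC-like cells, began at 14.6-fold and 34.4-fold. In S2CK, with 3 against 1 UMI, the log2 ratio was 6.38 (2.74 to 12.10). The fit gave an adjusted p of 2.57e-06 in edgeR. Its fitted log2 value of 7.41 ± 1.06 depends on the small count added to libraries at 0. Connective-tissue-like cells held 22.6, 13.0 and 18.5 CPM and endothelial-like cells 16.5, 15.6 and 25.5 CPM, from 1 to 3 UMIs each, and these ranges overlap that of SC-like cells. Of the 14 UMIs in SC-like cells, 11 lay in cells that also held a vascular or connective tissue marker UMI, and the gene fell under the count filter without those cells. Leukocyte-like cells had a UMI in 0 of 449 cells, which allows a share of up to 0.668%.

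Tead3, the further factor of this family that was tested, had 2, 4 and 5 UMIs in SC-like cells (3.73, 10.6 and 7.95 CPM) and stood at 0.751, 0.422 and 0.572 CPM in endocrine-like cells, and the fitted difference was 3.43 ± 0.78 with an adjusted p of 0.00092 in edgeR. Tead4 had 1 UMI in SC-like cells and none in endocrine-like cells.

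**Figure D3:**
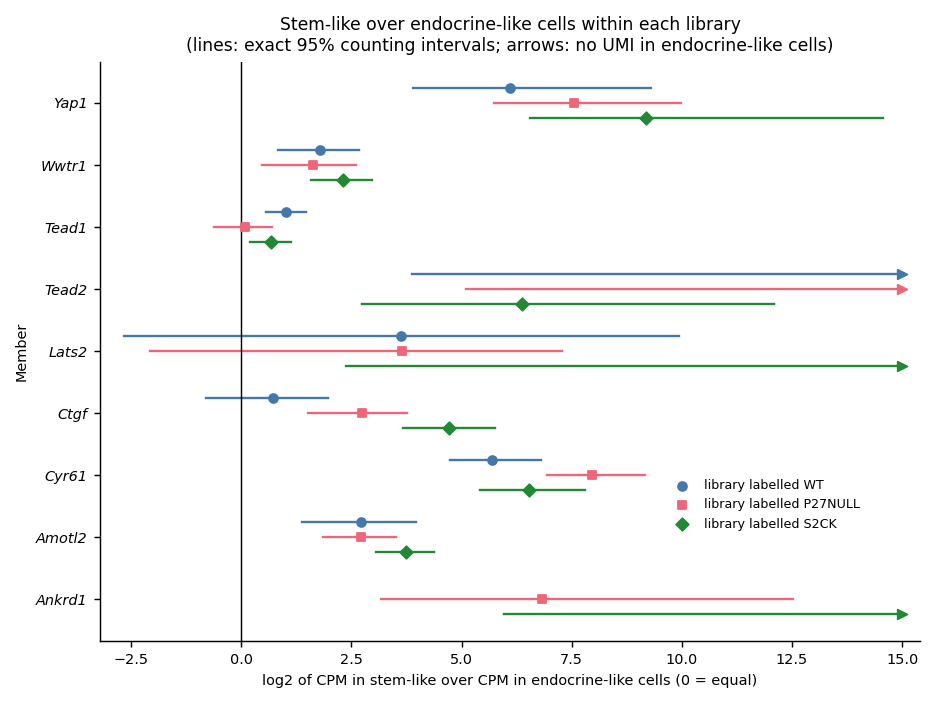
The log2 ratio of SC-like over endocrine-like CPM (horizontal axis, 0 is equal) for each member within each library, with exact 95% counting intervals; arrows mark intervals with no upper end because endocrine-like cells held no UMI. The intervals of Yap1, Wwtr1, Tead2, Cyr61 and Amotl2 lay above 0 in all 3 libraries. Those of Tead1 in P27NULL, Ctgf in WT and Lats2 in WT and P27NULL included 0.

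Lats2 (chromosome 14, 57689662 to 57746212), the gene of a kinase that inhibits YAP and is itself a YAP target, was scarce in SC-like cells. SC-like cells held 1, 1 and 2 UMIs (1.86, 2.64 and 3.18 CPM) and endocrine-like cells 1, 3 and 0. Endothelial-like cells stood at 74.2, 78.2 and 25.5 CPM from 9, 5 and 3 UMIs, and these exceeded every value of SC-like cells. Connective-tissue-like cells, at 22.6, 6.51 and 12.3 CPM, and macrophage-like cells, at 20.04, 8.83 and 5.28 CPM, lay below endothelial-like cells and overlapped each other. The SC-like over endocrine-like log2 ratio of all libraries together, with 4 against 4 UMIs, was 4.63 (2.21 to 7.06). With no filter on low counts the adjusted p was 0.0608 in edgeR and the gene was not called. The share of cells with a UMI was 1.22% in SC-like, 0.0492% in endocrine-like and 2.004% in leukocyte-like cells. Macrophage-like cells carried Lats2 themselves, so leukocyte-like cells are no reading of free RNA for this gene, and the SC-like level over all libraries was 2.59 CPM (0.706 to 6.63).

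Among the target genes, Cyr61 (chromosome 3, 145646971 to 145649985), a secreted matrix protein gene whose promoter is printed above, had the most counts. SC-like cells held 46, 60 and 30 UMIs in WT, P27NULL and S2CK, or 85.8, 159 and 47.7 CPM, and endocrine-like cells 1.65, 0.633 and 0.515 CPM from 11, 9 and 9 UMIs. The groups lay far apart in every library, with log2 ratios of 5.70 (4.73 to 6.80), 7.97 (6.95 to 9.17) and 6.53 (5.42 to 7.79). The fitted difference was 6.56 ± 0.35 (SE) with an adjusted p of 4.51e-14 in edgeR, and it stayed called without the marker-bearing cells, at 5.93 and an adjusted p of 9.80e-27. A UMI was found in 18.6% of SC-like cells (14.5 to 23.2%), in 0.320% of endocrine-like cells and in 0.223% of leukocyte-like cells. The log2 ratio of endocrine-like over leukocyte-like level was -0.24 (-2.83 to 5.11), with 1 leukocyte-like UMI. The endocrine-like signal was thus not distinguishable from free RNA, and the wide interval does not place it at that level. After thinning these shares were 6.05%, 0.0988% and 0.248%. The most UMIs in a single SC-like cell were 6, 12 and 4. Other types stood at 8.49 to 109 CPM (endothelial-like) and 15.0 to 37.0 CPM (connective-tissue-like), and the endothelial-like value of P27NULL rested on 7 UMIs.

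Amotl2 (chromosome 9, 102717091 to 102733418), an angiomotin family gene whose product binds YAP and holds it out of the nucleus, stood at 16.8, 42.3 and 49.3 CPM in SC-like cells from 9, 16 and 31 UMIs. Endocrine-like cells stood at 2.55, 6.41 and 3.72 CPM, all below the SC-like values. The log2 ratio was 2.72 (1.37 to 3.96) in WT, 2.72 (1.86 to 3.50) in P27NULL and 3.73 (3.06 to 4.37) in S2CK. The fitted difference was 2.92 ± 0.34 (SE) with an adjusted p of 1.24e-07 in edgeR, and 1.88 with an adjusted p of 0.0189 without the marker-bearing cells. Endothelial-like cells, at 32.97, 62.5 and 25.5 CPM, overlapped SC-like cells. The share with a UMI was 11.6% of SC-like, 2.02% of endocrine-like and 0.223% of leukocyte-like cells, and 3.50%, 0.445% and 0.248% after thinning.

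Ctgf (chromosome 10, 24595442 to 24598683), another secreted matrix protein gene, stood higher in connective-tissue-like, endothelial-like and pituicyte-like cells than in SC-like cells. Connective-tissue-like cells stood at 587, 117 and 259 CPM, endothelial-like cells at 313, 328 and 323 CPM, and pituicyte-like cells at 268 CPM in WT and 102 CPM in S2CK, with overlap among these types. SC-like cells stood at 11.2, 23.8 and 27.02 CPM from 6, 9 and 17 UMIs, under every value of those types. Endocrine-like cells stood at 6.76, 3.59 and 1.03 CPM. In WT the log2 ratio of SC-like over endocrine-like cells was 0.73 (-0.79 to 1.96) and lay within counting error, and in P27NULL and S2CK it was 2.73 (1.52 to 3.77) and 4.71 (3.67 to 5.75). The fitted difference was 2.54 ± 0.54 (SE) with an adjusted p of 0.000453 in edgeR. It was 1.49 with an adjusted p of 0.0341 without S2CK and 3.45 with an adjusted p of 1.02e-08 without WT. Of the 32 UMIs in SC-like cells, 28 lay in cells with a vascular or connective tissue marker UMI. Without these cells Ctgf stood at 6.53 CPM (1.78 to 16.7) and the difference, 0.47 with an adjusted p of 0.760, was not called. The share with a UMI was 5.79% of SC-like, 0.997% of endocrine-like and 0.668% of leukocyte-like cells, and 2.55%, 0.222% and 0 of 404 cells after thinning.

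Ankrd1 (chromosome 19, 36111965 to 36119844), a repeat protein gene used as a reporter of YAP activity, had 3 UMIs in SC-like cells of P27NULL and 10 in those of S2CK (7.93 and 15.9 CPM). The 10 UMIs of S2CK came from 5 cells, with 4 in a single cell. Endocrine-like cells held 1 UMI in P27NULL and none in S2CK. The log2 ratio in P27NULL was 6.82 (3.18 to 12.53), and in S2CK the gene was 92.6-fold higher in SC-like cells when set against the floor of 3 UMIs. The exact interval of the S2CK ratio began at 62.3-fold. With no filter, and with the missing WT row taken as 0, the adjusted p was 3.26e-06 in edgeR, where 15% of 17504 genes were called higher. Of the 13 UMIs, 10 lay in cells with a marker UMI. Outside SC-like cells 2 UMIs were found among the named types, 1 in a melanotroph-like and 1 in a connective-tissue-like cell.

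**Figure D4:**
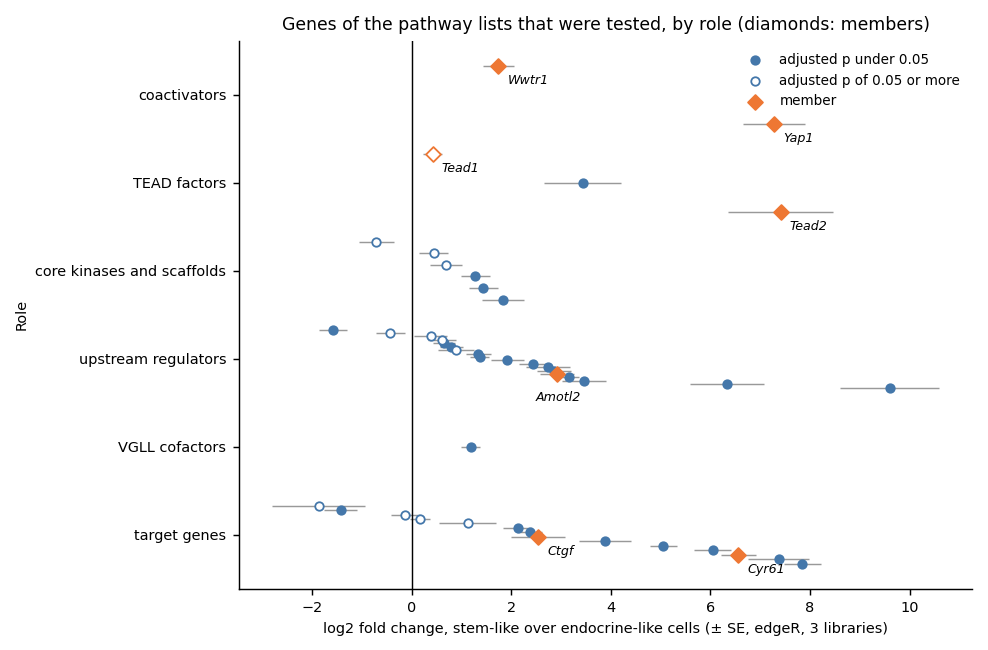
The log2 fold change of SC-like over endocrine-like cells (horizontal axis, ± SE, edgeR fit of 3 libraries) for the genes of the pathway lists that passed the count filter, in rows by role; filled marks had an adjusted p under 0.05 and diamonds are members. Most filled marks lie to the right of 0, and 2 lie to the left.

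The wider pathway was counted on 47 further genes in lists by role. Of these, 37 were tested, 24 were higher and 2 were lower in SC-like cells, beside 20.4% and 20.5% of all genes, and the median log2 fold change was 1.36. As with the members, some genes passed the filter through SC-like cells alone, Ajuba, Ptpn14, Axl and Tgfb2 among them. The count and the median rest in part on such genes. With no filter on low counts, 26 of 46 were higher and 2 were lower, beside 15% and 17.3% of all genes. Among the core kinases and scaffolds, 3 of 6 tested were higher and none lower. These were the LATS-activating subunits Mob1a (1.83 ± 0.42, adjusted p 0.000982) and Mob1b (1.43 ± 0.29, adjusted p 0.000264) and the scaffold Sav1 (1.27 ± 0.29, adjusted p 0.000824), all by edgeR. The kinase genes Stk3, Stk4 and Lats1 did not pass, at 0.68, -0.72 and 0.43. Mob1a stood higher in leukocyte-like cells, at 53.5 to 64.3 CPM, than in SC-like cells, at 12.7 to 24.2 CPM. Among the upstream regulators, Amotl2 included, 13 of 18 were higher and 1 was lower.

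Ajuba, a LIM protein that inhibits LATS kinases, had 6, 8 and 10 UMIs in SC-like cells of WT, P27NULL and S2CK and none in endocrine-like cells. Set against the floor of 3 UMIs per library, it was 24.8-fold, 100.2-fold and 92.6-fold higher. The exact intervals of its ratios began at 14.6-fold, 64.1-fold and 62.3-fold. Its adjusted p was 3.05e-08 in edgeR. Ptpn14, a phosphatase that binds YAP and also a YAP target, stood at 14.9, 13.2 and 15.9 CPM against 0.30, 0.141 and 0.0572 CPM, a difference of 6.34 ± 0.75. Ptpn14 was higher still in endothelial-like cells, at 41.2, 31.3 and 50.9 CPM. Amot, a relative of Amotl2, stood at 24.2, 21.2 and 47.7 CPM against 3.15, 3.10 and 1.54 CPM, a difference of 3.45 ± 0.45. The gene that was lower was the kinase gene Taok3, at 18.6, 18.5 and 9.54 CPM against 39.4, 42.6 and 35.1 CPM, a difference of -1.59 ± 0.28.

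Of 17 target genes that are not members, 13 were tested, 8 were higher and 1 was lower in SC-like cells, beside 20.4% and 20.5% of all genes. The median log2 fold change of the 13 was 2.37, and it rests in part on genes that passed the filter through SC-like cells alone. With no filter, 9 of 16 target genes were higher and 1 was lower, beside 15% and 17.3% of all genes. Tgfb2, a secreted growth factor gene, had the largest difference of them, at 85.8, 66.1 and 81.1 CPM in SC-like cells against 0.451, 0.141 and 0.286 CPM in endocrine-like cells, or 7.85 ± 0.38 on the log2 scale. It stood at 31.3 CPM or less in endothelial-like and at 6.51 CPM or less in connective-tissue-like cells. Axl, a receptor tyrosine kinase gene, stood at 27.97, 29.1 and 31.8 CPM against 0.30, 0.141 and 0.0572 CPM (7.37 ± 0.62), and at 43.1 to 70.9 CPM in leukocyte-like cells, which is known of macrophages. Gadd45a, a stress response gene, was the target that was lower, at 1.86, 18.5 and 27.02 CPM against 28.7, 40.6 and 39.9 CPM (-1.43 ± 0.33). Of the VGLL cofactors, which compete with YAP for TEAD, Vgll4 alone was tested and was higher, by 1.18 ± 0.20.

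With 1 library per genotype, differences between genotypes have no replicate check, were not tested, and cannot be told apart from differences between pools, dissections and the sexes of the cells. They are given for SC-like cells as log2 ratios of CPM with exact conditional intervals. For P27NULL against WT the interval left out 0 for 2 of the 7 members with at least 10 UMIs, Cyr61 and Amotl2, both higher, beside 4.48% of 8528 genes higher and 3.58% lower. These intervals hold counting error alone. Cyr61 was 0.89 higher (0.31 to 1.47) in P27NULL than in WT, and 0.85 higher (0.25 to 1.46) when the 86 P27NULL cells without an Xist UMI were set against WT. The study lists Cyr61 among SC genes that differ in these same libraries, so its direction is not independent evidence.

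For S2CK against P27NULL the interval left out 0 for Cyr61 alone, which was lower, beside 5.5% of 8914 genes higher and 9.59% lower. Its log2 ratio was -1.73 (-2.42 to -1.08), and -1.96 (-3.07 to -0.70) against the 18 P27NULL cells with an Xist UMI and no Y-linked UMI. Thinning to 1000 UMIs left 9, 10 and 2 Cyr61 UMIs in WT, P27NULL and S2CK, and the ratios of 0.44 (-1.01 to 1.92) and -2.00 (-5.23 to 0.23) then lay within counting error. For S2CK against WT, where 6.17% of 9231 genes were higher and 8.87% lower, the intervals of Cyr61 and Amotl2 left out 0, with Cyr61 at -0.85 (-1.56 to -0.15). Ankrd1, which had no row in WT, held 10 UMIs in SC-like cells of S2CK and is not counted here. The 5 immediate early genes Ier2, Fos, Junb, Jun and Egr1, which answer to stimuli and to tissue dissociation, summed to 4665, 9517 and 4503 CPM in SC-like cells. The sum was highest in P27NULL, as was Cyr61, and each of the 5 was higher there than in either other library. The study had picked these 5 genes from those raised in the SC subcluster richest in p27-/- cells of these same libraries. Their direction in P27NULL is therefore not independent evidence. For S2CK against WT Ier2 alone of the 5 was lower, at -0.39 (-0.53 to -0.26), and Fos, Junb, Jun and Egr1 gave 0.03, 0.16, 0.14 and 0.15 with intervals that included 0. Their part in the Cyr61 values was not tested. In the comparison of cell types 4 of these 5 genes were higher in SC-like cells and none was lower, beside 20.4% and 20.5% of all genes.

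Amotl2 was 1.33 higher (0.07 to 2.69) in P27NULL than in WT, from 16 and 9 UMIs. The direction did not hold in every setting. It turned to -0.52 (-2.74 to 1.46) when cells were thinned to 1000 UMIs, with 4 and 7 UMIs left, and it was 0.66 (-1.77 to 3.08) without cells carrying vascular or connective tissue marker UMIs. With TMM factors it was 1.26 and the interval, up to 2.62, just included 0. S2CK against P27NULL gave 0.22 (-0.69 to 1.19). This ratio turned to -1.67 (-7.30 to 1.66) on thinning and to -0.40 (-3.17 to 2.17) without the marker-bearing cells, and it was 1.26 (-1.33 to 6.61) against the P27NULL cells with an Xist UMI and no Y-linked UMI, where 1 UMI was found. S2CK against WT gave 1.55 (0.45 to 2.81), 0.26 (-2.51 to 2.82) without the marker-bearing cells, and -2.19 (-7.69 to 0.77) on thinning. The connective tissue and mural marker sums given above were also lowest in WT, while the endothelial sum was highest there, and their part in the Amotl2 values was not tested.

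The other members lay within counting error between neighbouring genotypes. Yap1 in SC-like cells was 0.95 (-0.27 to 2.22) for P27NULL against WT and -0.25 (-1.27 to 0.81) for S2CK against P27NULL. Wwtr1 gave -0.13 (-1.52 to 1.18) and 0.56 (-0.62 to 1.86) in the same comparisons. On thinning, with 1 and 6 UMIs left, its first ratio moved to -2.30 (-7.82 to 0.75), and without the marker-bearing cells, with 1 and 4 UMIs, the second turned to -1.98 (-7.60 to 1.36). Tead1 gave -0.69 (-1.50 to 0.08) and 0.30 (-0.48 to 1.13). These intervals allow changes of more than 1 on the log2 scale in at least 1 direction, so a difference of that size was not detectable at this depth, and its absence was not shown. Ctgf gave 1.09 (-0.56 to 2.86) and 0.18 (-1.06 to 1.53), Tead2 gave 0.24 (-1.81 to 2.22) and -1.47 (-4.16 to 0.89), and Ankrd1 gave 1.003 (-0.95 to 3.50) for S2CK against P27NULL. Among pathway genes outside the members, with at least 10 UMIs, the interval left out 0 in 2 of 32 for P27NULL against WT. Of these 1 was higher and 1 lower, beside 4.48% and 3.58% of all genes. For S2CK against P27NULL 5 of 36 were higher and 1 was lower, beside 5.5% and 9.59% of all genes. For S2CK against WT 3 of 36 were higher and none was lower, beside 6.17% and 8.87%.

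**Figure D5:**
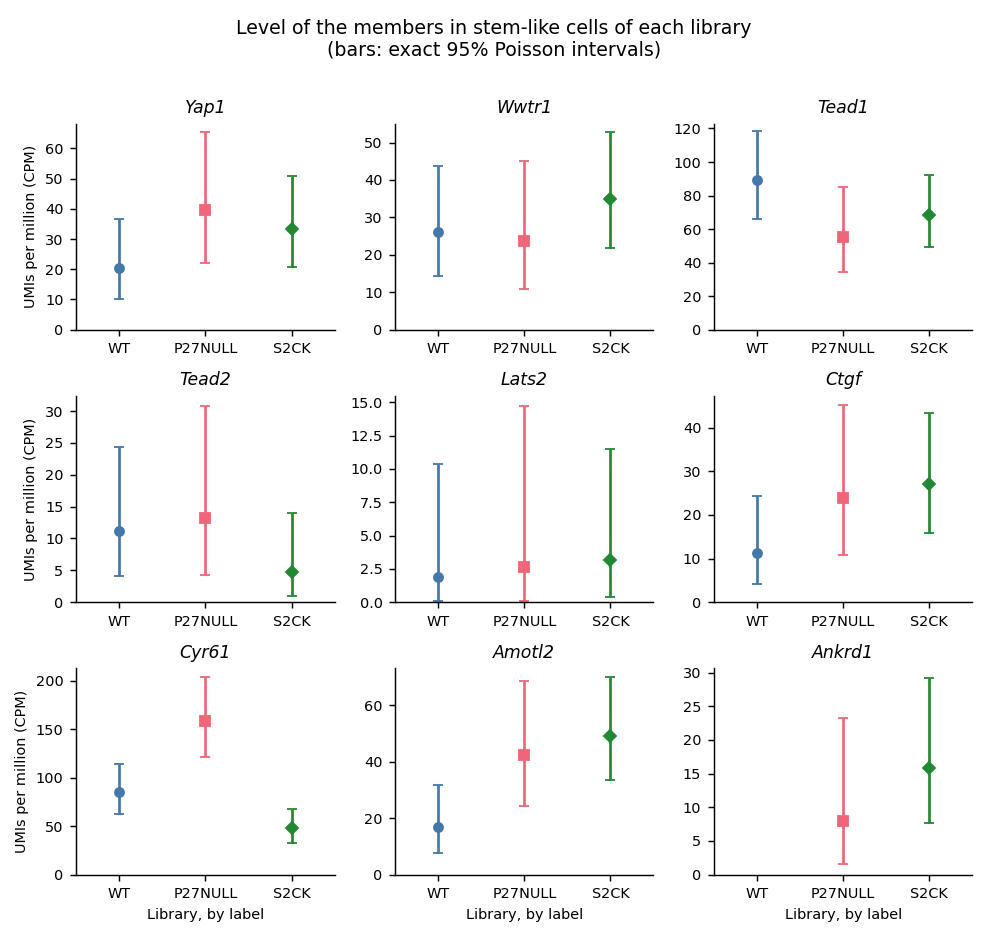
Level of each member (vertical axes, CPM, linear) in SC-like cells of the libraries labelled WT, P27NULL and S2CK, with exact 95% Poisson intervals and 1 library per point; Ankrd1 had no row in WT. Cyr61 stood at 85.8, 159 and 47.7 CPM, and the intervals of Yap1, Wwtr1, Tead1, Tead2, Lats2 and Ctgf overlap among all 3 libraries.

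The pattern over cell types was also compared between genes, as the Pearson correlation of log2(CPM + 10) over 25 sums of library and cell type among 7264 genes. These sums share libraries and depths, and r is a description. Genes nearest to Yap1 were Smpdl3a (r = 0.84), Ltbp4 (0.83) and Pttg1 (0.82), and those nearest to Tead1 were S100a1 (0.89), Cnn3 (0.84) and Nfix (0.83). Nearest to Wwtr1 were Tjp1 (0.92), itself on the list of upstream regulators, Ifitm2 (0.92) and Plpp3 (0.90). Nearest to Tead2 were Cald1 (0.89), Plpp3 (0.89) and Igfbp7 (0.89).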

How the data were processed

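Single-cell libraries of mouse ILs (WT, P27NULL and S2CK, 1 each) were made by the authors with the Chromium Single Cell 3′ kit and processed with Cell Ranger 3.0.2 (STAR 2.5.1b) on GRCm38, and the submitters' notes also name Seurat 3 and R 3.6.0. Deposited values are raw UMI counts per gene and cell, with no normalization. The totals were 8332285 UMIs in 2020 cells (WT), 15588317 in 4153 (P27NULL) and 19239147 in 3488 (S2CK), so rare genes carry wide intervals. Genes with no row in a table were counted as 0, which touched 6 of 12106 tested genes and no tested member. Cells were clustered with scanpy 1.11.5 (2000 variable genes, 20 principal components, 20 neighbours, Leiden resolution 1), with pathway, sex-linked and other reported genes left out, and clusters were named from marker lists with thresholds set after the data were seen. The libraries shared 2 to 4 cell barcodes per pair. Doublets were kept, since Scrublet marked only 11 of 9661 cells. Summed counts were tested in edgeR 4.0.16 (R 4.3.3, TMM, library as a term) after a test on simulated data. DESeq2 1.42.0 was an alternative. Intervals are exact Poisson, Clopper-Pearson or conditional binomial at 95%. All 9 members were named, and of the other genes up to 3 per role with the largest difference past the threshold, while Tead4, Stk3, Stk4, Lats1, Taok3 and Gadd45a were named after their values were seen. The members and lists were chosen with earlier results of these data known.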

Additional observations from a re-analysis of the deposited data

How the results depend on the processing

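Of the 12106 genes tested in SC-like against endocrine-like cells, 2474 were higher and 2485 lower. DESeq2 lowered the count of lower genes to 1549 and total UMI counts in place of TMM scaling lowered it to 1636, with 2020 and 3179 genes higher. Total counts raised the share of higher calls among all calls from 49.9% to 66.0% and moved the median of all genes from -0.07 to 0.16, and 7 of 7 members were then called. SC-like cells without UMIs of the vascular and connective tissue markers, a setting chosen after the data were seen, gave 1634 higher genes and 3 called members (Yap1, Cyr61 and Amotl2), with Wwtr1 and Ctgf lost and Tead2 under the filter; this setting also leaves fewer cells. Leaving out each library in turn gave 2140 to 2204 genes higher, 1804 to 2210 lower and 5 to 6 members called. Yap1, Cyr61 and Amotl2 were called in all 16 fits, at 6.67 to 7.76, 5.86 to 7.19 and 1.88 to 3.17 on the log2 scale. Without S2CK the Ctgf difference was 1.49 and without WT 3.45, against 2.54. The Amotl2 ratio of P27NULL against WT turned to -0.52 on thinning, where few UMIs are left. All 9 shares of SC-like cells with a UMI fell on thinning, by construction. No paired analysis was possible between genotypes because each has a single library. Cell types were compared within libraries, and without the library term 2316 genes were higher and 2035 lower, with 6 members called. Depth limits most members, with 4 to 136 UMIs in all SC-like cells.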
